A study of Mus musculus with 1012 samples.

Results

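A set of 10 genes of the smooth muscle contractile apparatus was followed across all cells of the Live-seq series: the actins Acta1, Acta2 and Actg2, the calponins Cnn1 and Cnn2, the transgelin Tagln, the myosin chains Myl9 and Myh11 and the tropomyosins Tpm1 and Tpm2. They were chosen by name, with earlier results of these data known, and they are 10 of the 30452 features of the count table. All 10 are in the table and 9 of them entered the tests, since Myh11 had too few counts.

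The study compared Live-seq, which sequences cytoplasm drawn from a living adherent cell, with scRNA-seq of whole cells that had been trypsinized and sorted. ASPC cells are primary adipose stem and progenitor cells from the subcutaneous fat of female C57BL/6J mice aged 7 to 10 weeks; ASPC_Pre cells were not treated, and ASPC_Post cells had received the DMIR cocktail (dexamethasone, IBMX, insulin and rosiglitazone) for 2 days. IBA cells are an immortalized line of brown preadipocytes from the interscapular fat of young male C57BL6/J mice. RAW cells are the macrophage-like line RAW264.7, mostly its RAW-G9 clone, which carries an mCherry reporter under the Tnf promoter and an EGFP-Rela fusion; RAW_LPS cells had received LPS (for 4 to 5 h in Live-seq) and RAW_Mock cells had not, and wild-type RAW264.7 cells were present only in Live-seq batch 5Reseq (11 RAW_LPS cells and 1 RAW_Mock cell). Live-seq gave 61 ASPC_Pre, 37 ASPC_Post, 44 IBA and 50 RAW_LPS samples, and RAW_Mock samples in batches of 8, 20, 63 and 12 beside the wild-type cell. Whole-cell sequencing gave 60 ASPC_Pre and 35 ASPC_Post cells, and, by batch (8_8, then 9_1, then the one named scRNA), 15, 45 and 93 IBA, 16, 46 and 95 RAW_Mock and 15, 46 and 88 RAW_LPS cells. In a further experiment within a single batch, IBA cells were profiled whole at 1 h (49 cells) or 4 h (43 cells) after a Live-seq sampling, beside 70 IBA cells that had not been sampled. Per the labels, the ASPC cells sampled more than once are in Live-seq batch 9_4; per the study's methods, sequentially sampled ASPC cells carried a lentiviral GFP reporter with a barcode. The number of animals behind the ASPC cells is not used here, IBA and RAW-G9 are single lines, and batches were therefore taken as the replicates; the study describes its samples as prepared in experimental replicates, but neither the labels nor its text say that a batch is such a replicate or had a culture of its own, so that p-values measure the spread between batches.

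In smooth muscle, actin filaments and bipolar filaments of myosin slide past each other once the regulatory light chain of myosin is phosphorylated, while tropomyosin, calponin and transgelin bind along the actin filament. Many of these genes carry CArG boxes, the sites bound by serum response factor (SRF), whose coactivators of the myocardin family respond to the pool of unpolymerized actin. The same genes are expressed outside muscle by myofibroblasts and by mesenchymal cells grown on stiff plastic, and Acta2 is the usual marker of a myofibroblast.

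Promoter sequences show which of the members hold a CArG box close to their start site. RefSeq promoters on GRCm38.p6 were matched for 7 of the 10 members (Acta1, Acta2, Cnn1, Cnn2, Myl9, Tpm1 and Tpm2), and the 250 bases before the start were searched on both strands. A strict CArG box was present in 3 of the 7, against 1.62% of 27025 genes. The windows with these boxes are printed 5′ to 3′ on the gene's own strand, with the CArG box in capitals.
Acta1, chr8:123894776-123894875, minus strand: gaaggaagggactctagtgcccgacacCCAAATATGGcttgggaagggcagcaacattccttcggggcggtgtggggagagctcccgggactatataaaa
Cnn2, chr10:79988500-79988583, plus strand: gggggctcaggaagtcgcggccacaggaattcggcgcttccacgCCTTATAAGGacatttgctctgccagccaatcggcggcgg
Myl9, chr2:156775274-156775373, plus strand: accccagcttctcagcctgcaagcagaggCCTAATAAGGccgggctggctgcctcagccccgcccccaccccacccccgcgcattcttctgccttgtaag

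Boxes with 1 G or C in the A/T core were present in Acta1, Acta2 and Myl9, against 8.33% of genes. Both such boxes of Acta2 are shown in capitals because Acta2 was the most abundant member in ASPC_Pre. By the GENCODE model these 2 boxes lie inside the untranslated first exon of Acta2.
Acta2, chr19:34255443-34255462, minus strand: gaggtCCCTATATGGttgtg
Acta2, chr19:34255393-34255412, minus strand: ttgctCCTTGTTTGGgaagc
The strict boxes were 73 to 64 bases before the start in Acta1, 56 to 47 in Cnn2, and farther upstream in Myl9. The letters CATTCC, the core of the M-CAT element bound by TEAD factors, were present in Acta1, Acta2 and Tpm1 (14.4% of genes), and TATAAA in Acta1 alone of the 7 (14.3% of genes). A match describes letters in this window and not a bound site.

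Levels are given as CPM, the counts of a gene scaled to the kept counts of a sum over the cells of a batch and state. A Live-seq sample held 506778.5 counts and 3939 detected genes by the median, a scRNA-seq cell 467677 and 8434, and a cell of the IBA sampling experiment 506266 and 8428.5. The samples carried the markers of their labels. Mesenchymal progenitor markers (Pdgfra, Dcn, Col1a1, Col3a1, Ly6a and Thy1) summed to 2886 to 4519 CPM in ASPC_Pre and 619.6 to 8669 CPM in IBA, and were at most 1.20 CPM in RAW cells. Macrophage markers (6 genes) reached 2029 to 28130 CPM in RAW cells and at most 78.3 CPM elsewhere, apart from 1 scRNA-seq IBA sum with 542.9 CPM. Smooth muscle and skeletal muscle cells also express the members, and whether such cells had a part in the member levels was not tested. The 5 pericyte and vascular smooth muscle markers (Rgs5, Notch3, Cspg4, Mcam and Kcnj8) summed to 2.75 to 56.4 CPM in ASPC and 50.3 to 164.8 CPM in IBA, and the 4 skeletal muscle markers were at 0 to 29.9 CPM. The members as a group took 1.40 and 4.74% of the counts of the Live-seq ASPC_Pre sums, 0.915 and 1.46% in scRNA-seq, and at most 0.039% in any RAW sum.

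Acta2, alpha smooth muscle actin (chr19:34241090-34255590, minus strand, GRCm38), was the most abundant member per kilobase of exon in ASPC_Pre and IBA, by the mean over sums, in both techniques. This did not hold in every IBA sum. In Live-seq batch 9_4 and scRNA-seq batch 9_1 of IBA, Acta2 was at 55.6 and 110.9 CPM per kilobase. Cnn2 was at no less than 133.8 and 173.4 CPM per kilobase in the IBA sums of these techniques. In ASPC_Pre Acta2 reached 26049 CPM in batch 8_8 and 6859 CPM in batch 9_4 of Live-seq, and 6879 CPM in batch 8_8 and 3909 CPM in batch 9_1 of scRNA-seq. In IBA it reached 1246, 2442 and 122.0 CPM in the Live-seq batches 7, 8_8 and 9_4, and 493.3, 243.6 and 2332 CPM in the scRNA-seq batches in the order given above. In RAW cells it stayed between 0 and 6.99 CPM over all sums. The ASPC_Pre sums thus lay above every IBA sum, and the IBA sums lay farther apart from each other, as a ratio, than the ASPC_Pre sums. Acta2 was counted in all 60 scRNA-seq ASPC_Pre cells (exact binomial 95% interval from 94.04%, median 464579 kept counts per cell), in 90.8% of IBA cells (85.1 to 94.9%) and in 14.01% of RAW_Mock cells (8.995 to 20.4%, median 332291 kept counts). All intervals here stand for counting error alone, because a molecule can give several reads and none carried an identifier, and the RAW share is read as background.

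**Figure D1:**
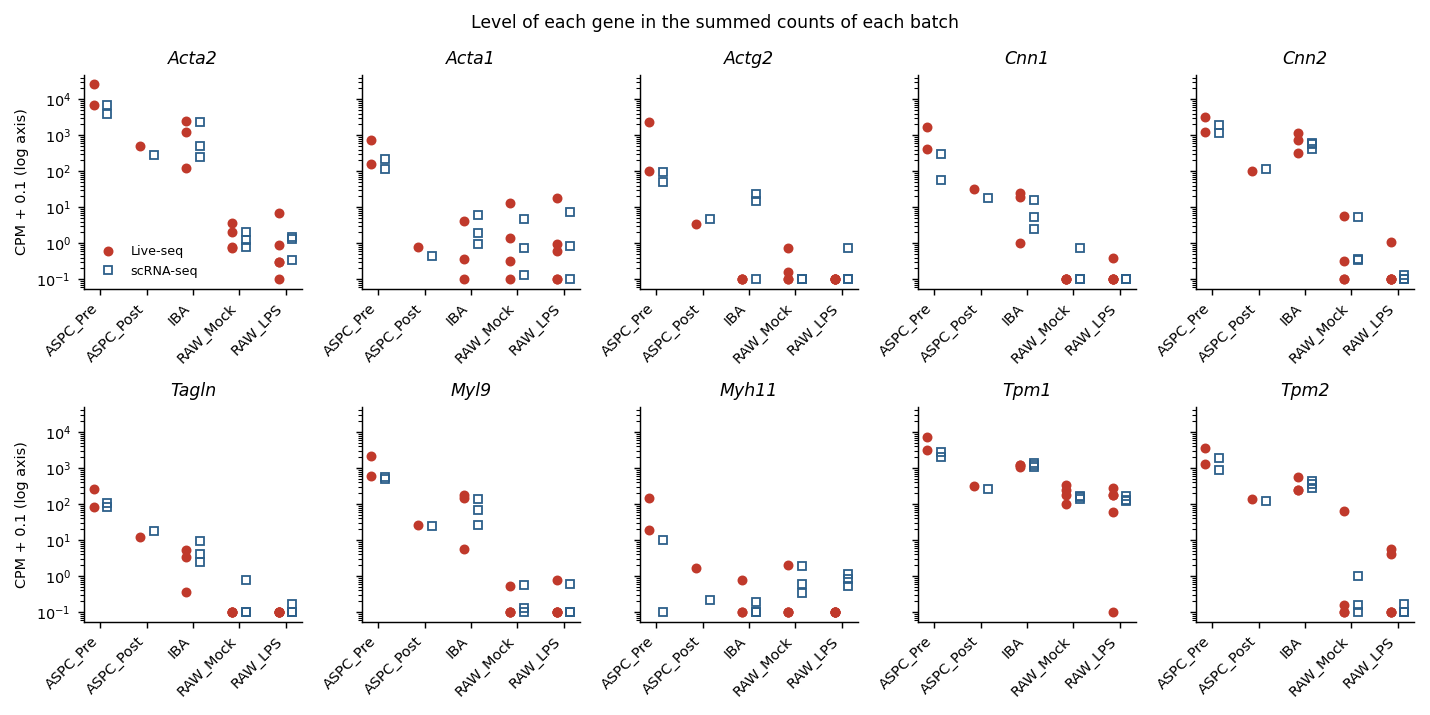
Level of each of the 10 members (CPM + 0.1, log axis) in the 5 states, with a filled circle for each Live-seq batch sum and an open square for each scRNA-seq batch sum. Acta2 points of ASPC_Pre lie above all those of IBA, and the Acta2 points of RAW cells lie at 6.99 CPM or less.

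Acta1, skeletal muscle alpha-actin (chr8:123891769-123894751, minus strand), was also present in ASPC_Pre. It was at 746.5 and 159.4 CPM in Live-seq and 218.9 and 113.1 CPM in scRNA-seq, and in IBA at 0 to 3.93 and 0.87 to 5.84 CPM. The counts came from a part of the cells, and in the scRNA-seq sum of batch 8_8 a single cell gave 73.9% of them. Acta1 was counted in 61.7% of scRNA-seq ASPC_Pre cells (48.2 to 73.9%) and in 14.6% of RAW_Mock cells, but the RAW share went with the batch: it was 50% and 80% in RAW_Mock and RAW_LPS of scRNA-seq batch 8_8 and 1.05 and 0% in batch scRNA. In scRNA-seq batch 8_8 Acta1 was at 5.84 CPM in IBA, 4.62 CPM in RAW_Mock and 7.27 CPM in RAW_LPS. In batch 9_1 it was at 1.88 CPM in IBA and 0.63 and 0.72 CPM in the RAW cells, and in batch scRNA at 0.87 CPM in IBA and 0.03 CPM or less in the RAW cells. Live-seq batch 8_8 had 13.3 and 18.2 CPM in RAW_Mock and RAW_LPS, against at most 1.28 CPM in the other Live-seq RAW sums.

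Actg2, the enteric smooth muscle gamma-actin (chr6:83512905-83536265, minus strand), was the most uneven of the actins. In ASPC_Pre it was at 2390 and 102.98 CPM in Live-seq and at 51.6 and 97.8 CPM in scRNA-seq. It had no count in any Live-seq IBA sum and was at 14.8, 0 and 22.6 CPM in scRNA-seq IBA. RAW sums were at 0.64 CPM or less.

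The calponins stabilize actin filaments; Cnn1 is the smooth muscle form and Cnn2 the form of many motile cells. Cnn1 (chr9:22099216-22109630, plus strand) was at 1643 and 419.9 CPM in Live-seq ASPC_Pre and 58.4 and 305.8 CPM in scRNA-seq, against at most 25.5 CPM in IBA. Cnn2 (chr10:79988584-79996062, plus strand) was less different between them, at 3310 and 1269 CPM in Live-seq ASPC_Pre and 1950 and 1169 CPM in scRNA-seq, against 329.2 to 1187 CPM and 426.6 to 602.4 CPM in IBA. The 2 Live-seq ASPC_Pre sums and 3 IBA sums did not overlap for either gene, but edgeR called neither in that comparison. The share of all genes without such overlap was not counted, so that this is a description only. RAW sums held at most 0.63 CPM of Cnn1 and 5.70 CPM of Cnn2.

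Tagln, also called SM22alpha, binds actin as an early marker of smooth muscle (chr9:45929619-45936058, minus strand). It was at 255.4 and 85.3 CPM in Live-seq ASPC_Pre, 83.9 and 109.8 CPM in scRNA-seq ASPC_Pre, 0.25 to 5.36 CPM in Live-seq IBA and 2.29 to 9.59 CPM in scRNA-seq IBA. Its level carries a limit of the counting. By GENCODE exon models 62.4% of its exon bases overlap exons of Gm48529 on the opposite strand and 5.4% those of Pcsk7, and the authors counted without strand, which leaves reads that lie on 2 genes unassigned. Gm48529 was at 0 to 4.02 CPM in all sums. Tagln is therefore compared between states and not with the other members.

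Myl9, the regulatory light chain of smooth muscle myosin (chr2:156775420-156781658, plus strand), was at 2216 and 597.7 CPM in Live-seq ASPC_Pre and 579.96 and 495.3 CPM in scRNA-seq. In IBA it was at 142.8, 174.5 and 5.48 CPM in Live-seq and 69.01, 25.97 and 142.6 CPM in scRNA-seq, and in RAW cells at 0.70 CPM or less. Myh11, the smooth muscle myosin heavy chain (chr16:14194535-14291372, minus strand), was nearly absent. It was at 145.4 and 18.6 CPM in Live-seq ASPC_Pre, but 77.7 and 92.2% of these counts came from 1 cell each. In scRNA-seq it was counted in 8 ASPC_Pre cells and 7 RAW_Mock cells, shares of 13.3% (5.94 to 24.6%) and 4.46% (1.81 to 8.97%) whose intervals overlap. Of its scRNA-seq ASPC_Pre counts 82.6% came from 1 cell, so that most ASPC_Pre cells had no count of this marker of mature smooth muscle, although all of them held Acta2.

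Tropomyosins lie in the groove of the actin filament. Tpm1 (chr9:67022590-67049406, minus strand) was at 7075 and 3105 CPM in Live-seq ASPC_Pre, 2863 and 2048 CPM in scRNA-seq ASPC_Pre and 1043 to 1368 CPM in scRNA-seq IBA. It was the member that RAW cells shared, at 140.3 to 172.1 CPM in scRNA-seq RAW_Mock and in 97.5% of those cells (93.6 to 99.3%). Tpm2 (chr4:43514711-43523765, minus strand) was at 3547 and 1337 CPM in Live-seq ASPC_Pre and 1880 and 896.2 CPM in scRNA-seq, against 284.3 to 423.6 CPM in scRNA-seq IBA. In RAW cells Tpm2 was at 0.92 CPM or less in scRNA-seq, whereas a Live-seq RAW_Mock sum (batch 6) held 62.04 CPM, all of it in 1 of 8 cells.

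To set the members against each other, levels were divided by exon length. In scRNA-seq ASPC_Pre the order of mean CPM per kilobase was Acta2 (2456), Cnn2 (634.01), Tpm2 (477.2), Myl9 (462.7), Tpm1 (378.7), Acta1 (108.1), Cnn1 (66.5), Actg2 (47.96) and Myh11 (0.65), with Tagln left aside. Acta2 stood apart from the next gene in both sums (1780 and 3133 against 475.4 and 792.7 CPM per kilobase of Cnn2). Below it, Cnn2 was above Tpm2, Myl9 and Tpm1 in both sums, and Myl9 (499.1 and 426.2) was above Tpm1 (441.5 and 315.8), whereas Tpm2 was above both of these in batch 8_8 (646.3) and below them in batch 9_1 (308.1). Acta1 (142.5 and 73.6) was above Actg2 (33.1 and 62.8) in both, and Cnn1 was below both in batch 8_8 (21.3) and above both in batch 9_1 (111.8). With 2 sums these orders had no test. The ranges over the sums overlapped between neighbours from Cnn2 to Tpm1 and from Acta1 to Actg2, but not between Acta2 and Cnn2, Tpm1 and Acta1, or Actg2 and Myh11.

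The first comparison asked whether ASPC_Pre and IBA, both adipose precursors, differ in these genes. In scRNA-seq all 9 tested members had higher levels in ASPC_Pre, and 6 were called higher by edgeR's quasi-likelihood test (adjusted p below 0.05 and a fold change above 2), where 11.2% of 13562 genes were called in either direction and 7.47% as higher. Acta1 was higher by 5.33 on the log2 scale (standard error 1.12, adjusted p = 0.0206 by edgeR). Acta2 was higher by 3.54 (standard error 0.79, adjusted p = 0.0251) and Myl9 by 3.84 (standard error 0.77, adjusted p = 0.0189). Tagln (4.87, adjusted p = 0.0413), Tpm2 (2.25, adjusted p = 0.0403) and Tpm1 (1.28, adjusted p = 0.0134) were called too. Tpm1 thus had the smallest difference of the 6 and the smallest adjusted p. Actg2 (6.22, adjusted p = 0.118), Cnn1 (4.60, adjusted p = 0.0832) and Cnn2 (1.54, adjusted p = 0.224) missed the threshold in edgeR, which does not show that they were equal. The median over the members was 3.84 on the log2 scale, beside 0.12 over all genes. Without batch 9_1 only Acta2 was called, without batch 8_8 Actg2, Myl9 and Tpm2, and without batch as a block Cnn1, Myl9, Tagln and Tpm1.

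In Live-seq the same 9 members were higher in ASPC_Pre by a median of 5.10 on the log2 scale, and none was called by edgeR (0.0223% of 13462 genes were, 0.0149% as higher and 0.00743% as lower). An unadjusted p below 0.05 was reached by 6 members and by 3.937% of all genes, and DESeq2 called 3 members, Acta1, Acta2 and Cnn1. The Live-seq sums of a state lay far apart, and none of the changes simulated with that spread, which were smaller than this median, were recovered, so that the lack of calls does not show that levels were alike. Acta2 ranged from 6859 to 26049 CPM in ASPC_Pre and from 122.0 to 2442 CPM in IBA.

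Against RAW_Mock, the background for a contractile gene here, all 9 tested members were called higher in scRNA-seq ASPC_Pre by edgeR (over all genes 40.0% in either direction, 27.2% up and 12.8% down) and 8 in IBA (33.7, 21.8 and 11.9%). Acta1 in IBA was the exception (1.95 on the log2 scale, adjusted p = 0.124 by edgeR). Acta2, Actg2, Cnn1, Cnn2, Tagln, Myl9 and Tpm2 were counted in under 15% of the scRNA-seq cells of either RAW state. They thus passed the filter only through the adipose cells, where they are high, which favours calls in this direction. In batches 8_8 and 9_1, which hold both states in scRNA-seq, Acta2 was at 6879 and 3909 CPM in ASPC_Pre and 0.69 and 1.96 CPM in RAW_Mock, Tpm1 at 2863 and 2048 CPM against 158.9 and 172.1 CPM, and Acta1 at 218.9 and 113.1 CPM against 4.62 and 0.63 CPM. Actg2 had 0 counts in scRNA-seq RAW_Mock. In Live-seq, 6 members were called higher in ASPC_Pre by edgeR, namely Acta2, Actg2, Cnn1, Cnn2, Myl9 and Tpm2 (over all genes 2.01% in either direction, 1.50% up and 0.505% down), and 4 in IBA, namely Acta2, Cnn1, Cnn2 and Myl9 (2.27, 1.40 and 0.869%). Both Live-seq counts rested on few batches: without batch 8_8 they were 0, and without batch 9_4 they were 0 and 1.

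LPS moved none of the members past the threshold. In scRNA-seq RAW_LPS against RAW_Mock edgeR called 0 of 9 members (over all genes 1.20% in either direction, 0.892% up and 0.310% down), and in Live-seq 0 of 9 (0%). Cnn2 alone had an unadjusted p below 0.05 in either technique, with a difference of -4.96 on the log2 scale in scRNA-seq (adjusted p = 0.193 by edgeR), from 5.31, 0.27 and 0.23 CPM in RAW_Mock to at most 0.03 CPM in RAW_LPS; DESeq2 called it in scRNA-seq. Tpm1, the member with counts in most RAW cells, differed by -0.06 (standard error 0.20, adjusted p = 0.998 by edgeR). Over all genes the Live-seq comparison had 4.004% with an unadjusted p below 0.05 and 0 called by edgeR. Among related genes, 3 rose with LPS in scRNA-seq: the cytoplasmic actin Actg1 by 1.46, the tropomyosin Tpm4 by 1.15 and the focal adhesion gene Zyx by 2.56 on the log2 scale (adjusted p = 0.0184, 0.032 and 0.00639 by edgeR).

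The genes around the members were followed in a list of 14 cytoplasmic paralogues and a list of 23 contractile regulators. For scRNA-seq ASPC_Pre against IBA, 12 paralogues were tested, of which 3 were called higher by edgeR (Actg1 by 1.04, the nonmuscle myosin Myh9 by 1.38 and Tpm4 by 1.301 on the log2 scale) and Myl12b lower, by -1.47; the median was 0.77. Of 21 tested regulators 9 were called higher and 0 lower, with a median of 1.33. Over all genes 7.47% were called higher and 3.69% lower. Lmod1, a nucleator of actin filaments in smooth muscle, was at 22.9 and 50.6 CPM in ASPC_Pre and at most 1.05 CPM in IBA. Mylk, the kinase of the myosin light chain, was higher by 3.69 on the log2 scale and Zyx by 2.52. Srf, which encodes the factor that binds CArG boxes, was at 8.59 to 46.5 CPM in ASPC_Pre and 8.84 to 64.2 CPM in IBA and was not called, and Myocd, the myocardin of muscle, was at 0 to 3.45 CPM and 0.67 to 1.67 CPM in these sums. Against RAW_Mock, 8 paralogues and 16 regulators were called higher in ASPC_Pre by edgeR (27.2% of all genes) and Myh14 lower (12.8%), and 7 and 14 higher in IBA (21.8%) with Myh14 again lower (11.9%). Some listed genes, such as Mylk, had no count in any scRNA-seq RAW_Mock sum. Such genes could pass the filter only through other states, which favours calls as higher. Cald1, the actin-binding caldesmon, was at 2514 and 3083 CPM in ASPC_Pre, 842.98 to 982.1 CPM in IBA and at most 1.39 CPM in RAW_Mock. The calponin Cnn3 was also nearly absent from RAW_Mock, at 0.46 CPM or less, but its ASPC_Pre sums (664.3 and 680.4 CPM) overlapped those of IBA (345.7 to 668.5 CPM). In Live-seq, 4 paralogues and 2 regulators were called in ASPC_Pre against RAW_Mock by edgeR (2.01% of all genes), and Cnn3, Cald1 and Zyx in IBA (2.27%).

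Adipogenic induction was sampled within batch 9_4 in Live-seq and within batch 9_1 in scRNA-seq. All 10 members had lower levels in ASPC_Post than in ASPC_Pre in both batches. In Live-seq, 10 of 10 members at 10 CPM or more in either state were at least 2-fold lower, where 17.9% of 8785 genes were (31.4% in either direction). In scRNA-seq, 9 of 9 were, where 11.2% of 9361 genes were (25.2% in either direction). Acta1, Actg2 and, in Live-seq, Myh11 reached 10 CPM in ASPC_Pre alone and were under 5 CPM after induction, so that the limit itself fixed their 2-fold difference. The other 7 members were at 10 CPM or more in both states of both techniques, and all 7 were at least 2-fold lower in each, beside 11.8% of 7026 genes at that level in Live-seq and 7.80% of 8010 in scRNA-seq, a limit chosen after seeing the data. These are single batches without a test, and each ratio is given with its counting interval. In summed counts fewer cells of a type and less RNA per cell cannot be told apart, and values per cell are given beside them.

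Acta2 was at 6859 CPM before and 493.9 CPM after induction in Live-seq, 13.9-fold lower (13.6 to 14.2), and at 3909 and 283.8 CPM in scRNA-seq, 13.8-fold lower (13.4 to 14.2). The median cell held 3591 CPM before and 109.3 CPM after in Live-seq, and 2461 and 74.9 CPM in scRNA-seq. Acta2 nevertheless remained counted in 64.9% (47.5 to 79.8%) and 82.9% (66.3 to 93.4%) of ASPC_Post cells (median 425109 and 461842 kept counts), against 15.4 and 14.01% of RAW_Mock cells (284848 and 332291). Acta1 had the largest ratio of summed counts, with 159.4 and 0.69 CPM in Live-seq (231.6-fold, 129.2 to 464.5) and 113.1 and 0.35 CPM in scRNA-seq (324.6-fold, 148.96 to 885.4), where 11 and 6 counts were left after induction. The median cell held 2.59 CPM of Acta1 before and 0 CPM after in Live-seq, and 1.78 and 0 CPM in scRNA-seq. Single cells before induction held up to 2021 CPM in Live-seq and 2867 CPM in scRNA-seq. Actg2 was 31.7-fold lower in Live-seq (24.02 to 42.6) and 20.5-fold in scRNA-seq (16.5 to 25.9), but 1 cell held 96.2 and 69.5% of its counts after induction. Without the cell with most Actg2 counts in each group, the levels before and after were 74.7 and 0.128 CPM in Live-seq and 63.2 and 1.49 CPM in scRNA-seq.

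Among the other members Myl9 was lower by 23.4-fold (21.2 to 25.9) in Live-seq and 19.97-fold (18.1 to 22.05) in scRNA-seq. Cnn1 was lower by 13.4-fold and 16.5-fold, Cnn2 by 12.5-fold and 10.1-fold, Tpm1 by 10.0-fold and 8.02-fold, Tpm2 by 9.55-fold and 7.27-fold, and Tagln by 7.10-fold and 6.26-fold. With cells thinned to equal counts the log2 ratio of Tagln in Live-seq was -3.78 in place of -2.83, and without the cell with most counts in each group that of Myl9 in scRNA-seq was -5.08 in place of -4.32. Myh11 had 25 counts after induction in Live-seq, all in 1 cell, and 2 in scRNA-seq. The actins, the calponins and Myl9 thus had larger ratios than the tropomyosins in each technique. After induction the median Live-seq cell had 0 CPM of Myl9, Cnn1 and Tpm2, and 232.98 CPM of Tpm1.

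**Figure D2:**
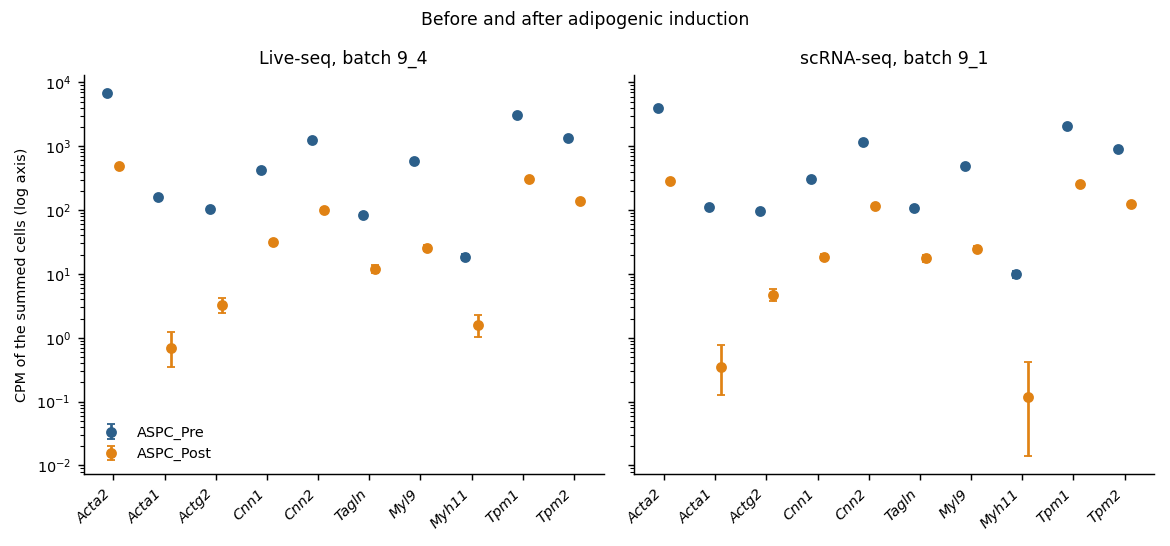
Levels of the 10 members (CPM of the summed cells, log axis) in ASPC_Pre (blue) and ASPC_Post (orange), for Live-seq batch 9_4 on the left and scRNA-seq batch 9_1 on the right; bars are exact 95% Poisson intervals, which cover counting error only. Each orange point lies below its blue neighbour, from 6859 to 493.9 CPM for Acta2 in Live-seq and from 3909 to 283.8 CPM in scRNA-seq.

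Both techniques in 1 model, with batch as a block, gave 0 calls for ASPC_Post against ASPC_Pre among members and among all 13561 genes (0%). All 9 tested members were lower, by a median of -3.62 on the log2 scale beside 0.05 over all genes. An unadjusted p below 0.05 was reached by 7 of them and by 4.424% of all genes. Acta1 and Actg2 were counted in only 11.4 and 14.3% of scRNA-seq ASPC_Post cells. They thus passed the filter through other states and not through ASPC_Post, which favours a lower value after induction. Acta1 differed by -7.30 (standard error 1.89, adjusted p = 0.359 by edgeR) and Acta2 by -3.62 (standard error 0.99, adjusted p = 0.384 by edgeR). DESeq2 called Acta1 and Acta2 lower (2 members), as did the newer quasi-likelihood fit of edgeR, and leaving out Live-seq batch 6 let edgeR call Tpm1. Within the scRNA-seq sums alone, a fit chosen after seeing the data, Tpm1 differed by -3.11 (standard error 0.36, adjusted p = 0.053 by edgeR) and 0 of 13562 genes were called.

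The genes around the members had medians below 0 after induction: -1.31 and -1.33 on the log2 scale for the paralogues and -0.76 and -0.32 for the regulators in Live-seq and scRNA-seq, beside -3.70 and -3.78 for the members and -0.17 and -0.06 for all genes. Of 11 paralogues at level, 11 were lower in both techniques, where 57.5% of all genes were in Live-seq and 52.8% in scRNA-seq, and 7 and 9 were at least 2-fold lower, where 17.9% and 11.2% of genes were. Actb, the main cytoplasmic actin, was 5.43-fold and 5.60-fold lower and Actg1 6.07-fold and 9.28-fold. Of the regulators, 16 of 19 were lower in Live-seq and 13 of 20 in scRNA-seq, 5 and 7 of them at least 2-fold, or 2 of 15 (13.3%) and 5 of 17 (29.4%) when 10 CPM was asked of both states, beside 11.8% and 7.80% of all genes. The regulators' share of lower genes in scRNA-seq (65.0%) and their share at least 2-fold lower in Live-seq were thus near those of all genes. Mylk was lower by 25.1-fold and 9.07-fold, Csrp1 by 3.48-fold and 4.78-fold and Vcl by 3.26-fold and 5.27-fold. In the joint model 0 genes of either list were called, with medians of -1.26 for the paralogues and -0.92 for the regulators. Mesenchymal progenitor markers summed to 5743 CPM in Live-seq ASPC_Post and 5299 CPM in scRNA-seq, against 2886 and 3877 CPM in ASPC_Pre of the same batches. In both techniques 4 of the 6 were higher and 2, Col1a1 and Thy1, lower. Col3a1 went from 389.8 to 2744 CPM in Live-seq and from 686.7 to 2745 CPM in scRNA-seq, more than the whole change of the sum in scRNA-seq. Adipocyte markers (6 genes) summed to 439.1 and 716.1 CPM, though RAW sums, which share some of them, held 14.7 to 3303 CPM.

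In batch 9_4 the labels pair 9 Live-seq samples of ASPC cells taken before induction with 9 taken after it as samplings of the same cell. The study counts fewer barcode-matched pairs, and the labels do not tell which of these pairs it leaves out. Acta2 was lower at the second sampling in 9 of 9 pairs. Its levels before were 758.1, 5561, 2957, 2965, 8773, 8539, 3591, 3492 and 333.4 CPM, and after, in the same order, 0, 0, 503.2, 0, 1.82, 0, 357.5, 0 and 130.8 CPM. The cell with the least Acta2 before induction held 130.8 CPM after it, and the 2 cells with the most held 1.82 CPM and none. The other pairs did not follow this order: the 2 cells with the most Acta2 after induction (503.2 and 357.5 CPM) had held 2957 and 3591 CPM. The cell with 758.1 CPM before went to 0. Cnn2 was lower in 9 of 9 pairs too, with a median of 712.4 CPM before.

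Tagln, Myl9, Tpm1 and Tpm2 were lower in 8 of 9 pairs each; with each sample thinned to equal counts Tagln was lower in 6 of 9 and the other 3 still in 8. The exceptions were in different cells for Tagln (7.15 CPM before, 77.3 CPM after) and Myl9 (0 and 102.6 CPM), and in the cell with the least Acta2 for Tpm1 (348.7 and 669.8 CPM) and Tpm2 (137.1 and 225.9 CPM). Acta1 was lower in 6 pairs and Cnn1 in 5, with 0 CPM at both samplings in the others, and Actg2 was lower in 3 and Myh11 in 2. Of 7804 genes with a mean of 10 CPM or more over the first samplings, 0.577% were lower in all 9 pairs and 3.06% in at least 8. A gene without counts at a first sampling could not be lower in that pair. Acta2 and Cnn2 had counts at all 9 first samplings, so these shares are not a matched background for them. Of the other genes followed, Actb was lower in 9 of 9 pairs, with a median of 15073 CPM before and 2394 CPM after, and Zyx in 9 of 9. Of the mesenchymal markers, Dcn and Col1a1 were lower in 8 of 9 pairs each, Thy1 in 7, Pdgfra in 5 (and higher in 2) and Ly6a and Col3a1 in 4 each (and higher in 5).

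**Figure D3:**
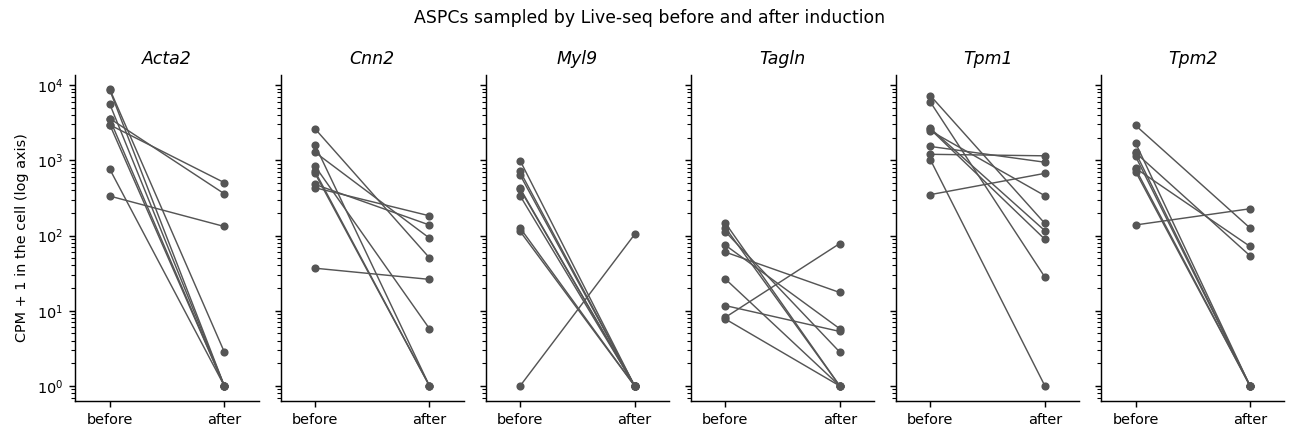
Levels of 6 members (CPM + 1, log axis) in 9 pairs of Live-seq ASPC samples from before and after induction, with a line for each pair. The labels give each pair as samplings of the same cell. All 9 Acta2 lines go down, 5 of them to 0 CPM, and Myl9, Tagln, Tpm1 and Tpm2 have 1 line each that goes up.

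IBA cells were followed after a Live-seq sampling. At 1 h, 8 of 8 members at 10 CPM or more in either group had higher values than in cells that had not been sampled, as had 41.9% of 8806 genes. Of these members 4 were at least 2-fold higher, where 2.29% of genes were (4.34% lower, 6.63% in either direction), but Acta1 and Actg2 reached 10 CPM at 1 h alone, so that the limit itself fixed their 2-fold difference. Among the 6 members at 10 CPM or more in both groups, all 6 were higher in the summed counts, Cnn2 only so (it was lower by the mean over cells and on thinned counts), and 2, Acta2 and Tagln, were at least 2-fold higher, where 42.7% and 1.04% of 7972 genes were. At 4 h, of the same 6 members 1 was higher and 5 lower, with 0 at least 2-fold apart. Acta1, which reached the limit at 4 h alone and had 53.5% of its counts there in 1 cell, made 1 at least 2-fold higher (2.63% of 8815 genes higher, 5.73% lower, 8.36% in either direction). All of these cells come from a single batch, so no test across batches was possible.

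Acta2 differed most among the members that most IBA cells held. It was at 813.6 CPM in cells not sampled, 2795 CPM at 1 h and 1165 CPM at 4 h, a ratio of 3.43 (3.38 to 3.49) and 1.43 (1.40 to 1.46). The median cell held 375.03, 1577 and 507.9 CPM, and without the cell with the most Acta2 counts in each group the sums were 741.2, 2566 and 1064 CPM, an alternative chosen after seeing the data. The level at 1 h was above 2332 CPM, the highest of the scRNA-seq IBA sums, and below that of every ASPC_Pre sum.

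The other members counted in most IBA cells differed less. Tpm1 was at 993.99, 1443 and 981.9 CPM, Tpm2 at 443.7, 576.5 and 439.04 CPM and Myl9 at 105.3, 156.1 and 97.8 CPM, while the median cell held less Myl9 at 1 h (33.1 CPM) than without sampling (49.3 CPM). Tagln was at 13.7, 29.4 and 11.2 CPM, a ratio of 2.15 (1.88 to 2.46) at 1 h. Cnn2, at 499.9, 510.6 and 364.02 CPM, was nearly level at 1 h (ratio 1.02, 0.995 to 1.05), and the mean over cells was lower at 1 h (533.1 CPM) than without sampling (560.04 CPM). For Tpm1, Tpm2, Myl9 and Tagln the values at 4 h were thus near or below those of cells not sampled.

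The remaining members rested on few cells. Acta1 was at 4.88, 121.7 and 13.6 CPM, but 86.5% of the counts at 1 h came from 1 cell, without which it was at 16.8 CPM. Actg2 was at 4.63, 27.4 and 0.69 CPM and was counted in 8.57, 22.4 and 6.98% of cells. Cnn1 was at 6.19, 2.40 and 0.69 CPM, and 96.2% of its counts at 1 h were from 1 cell. Myh11 had 7, 0 and 7 counts, and a floor of 3 counts at 1 h would be 0.138 CPM. Among related genes, 10 of 11 paralogues were higher at 1 h and 0 at least 2-fold, and of 17 regulators 5 were higher and 1, Synpo2, was at least 2-fold lower, which did not reach 10 CPM in both groups.

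**Figure D4:**
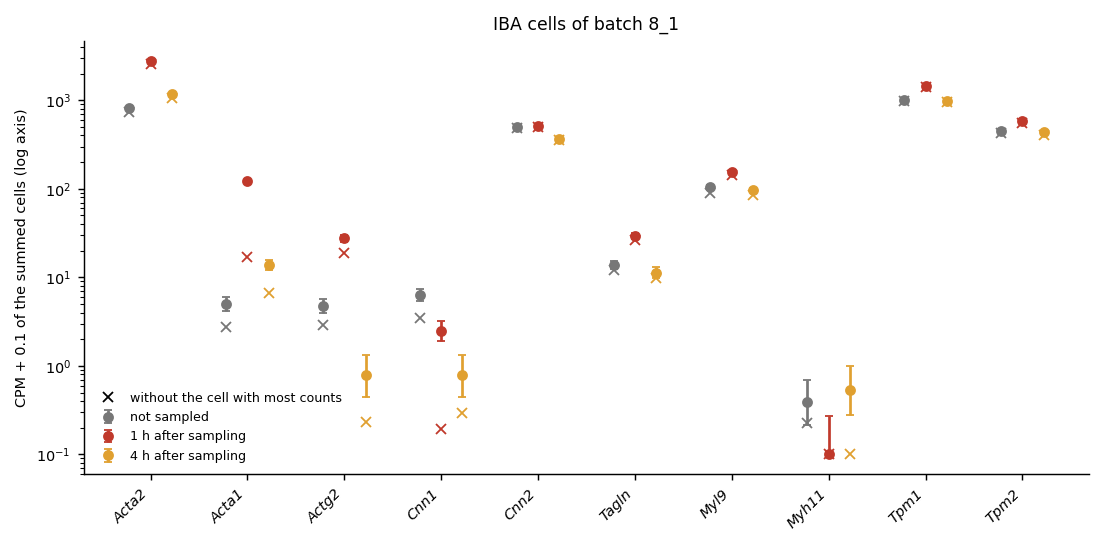
Levels of the 10 members (CPM + 0.1 of the summed cells, log axis) in IBA cells of batch 8_1 that had not been sampled (grey) or were profiled 1 h (red) or 4 h (yellow) after sampling; bars are exact 95% Poisson intervals and crosses are the levels without the cell with most counts. Acta2 reads 813.6, 2795 and 1165 CPM with all cells, and the Acta1 level at 1 h goes from 121.7 to 16.8 CPM without 1 cell.

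Live-seq and scRNA-seq levels of the members were compared in the states that both measured. In ASPC_Pre all 9 tested members were higher in Live-seq, by a median of 1.51 on the log2 scale beside -0.29 over all genes, and 0 were called by edgeR (0% of genes, with 1.482% at an unadjusted p below 0.05, none of them a member). In IBA 6 were higher and 3 lower, with a median of 0.08 beside -0.13 over all genes and 0 calls (0%, with 4.173% at an unadjusted p below 0.05, 1 of them a member, Actg2). No batch but 8_8 holds both techniques, so technique and batch cannot be told apart otherwise. In that batch Acta2 was at 26049 CPM in Live-seq and 6879 CPM in scRNA-seq ASPC_Pre, and at 2442 and 493.3 CPM in IBA. The libraries differed as well: the median Live-seq sample of batch 8_8 held 1636 detected genes in ASPC_Pre and 3528.5 in IBA. In scRNA-seq of that batch the medians were 7946.5 and 8419. Whether this had a part in the Acta2 difference was not tested.

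Across single cells of a batch the median correlation between members was positive in each set of cells examined. Spearman correlations were computed within a batch, over members counted in at least 50% of its cells, and are given as a description, because the cells share culture, batch and library plate. In scRNA-seq ASPC_Pre of batch 9_1 (44 cells) the median over 36 pairs of members was 0.562. In batch 8_8 (16 cells) it was 0.260, and 0.517 over the 6 members left when each cell was thinned to 50000 counts. Live-seq ASPC_Pre gave 0.475 (batch 9_4, 43 cells) and 0.410 (batch 8_8, 18 cells). In IBA the median was 0.509 in batch scRNA (93 cells) and 0.215 in batch 9_1 (45 cells), and in the sampling experiment 0.330 in cells not sampled and 0.638 at 1 h. Cells at 4 h, Live-seq IBA samples and scRNA-seq IBA cells of batch 8_8 were not included. ASPC_Post cells gave 0.486 in scRNA-seq and 0.355 in Live-seq. Acta2 against all genes counted in as many cells had medians between -0.102 and 0.086 in these batches, and its correlation with total counts lay between -0.228 and 0.170.

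Myl9 and Tpm1 were the members closest to Acta2 by the mean Spearman correlation over both scRNA-seq ASPC_Pre batches, with 0.803 and 0.772 on all counts and the opposite order (0.726 and 0.754) on thinned counts. Within the batches the closest member differed. It was Myl9 in scRNA-seq batch 9_1 (0.820), Tpm1 in scRNA-seq batch 8_8 (0.821, with Myl9 at 0.785) and in Live-seq batch 9_4 (0.759, with Myl9 at 0.690), and Tpm2 in Live-seq batch 8_8 (0.756, with Myl9 at 0.740). Among 10079 genes ranked by the mean over both scRNA-seq ASPC_Pre batches, Myl9, Tpm1, Cnn2, Tagln and Tpm2 held ranks 1, 2, 3, 6 and 10. Cnn1 was at rank 25, and Actg2 and Acta1 had mean correlations of 0.224 and 0.208. These low means did not extend to every batch: Actg2 was at 0.464 in scRNA-seq batch 9_1 and 0.469 in Live-seq batch 8_8, Acta1 was at 0.434 and 0.396 in the Live-seq batches 9_4 and 8_8, and in scRNA-seq batch 8_8 Cnn1 (0.124) was below Acta1 (0.209). The genes outside the members with the highest mean correlation were Dstn (0.634), which encodes an actin-depolymerizing factor, Cald1 (0.617), Actg1 (0.579), Wdr1 (0.578), a cofactor of actin disassembly, and Gm15228 (0.574).

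**Figure D5:**
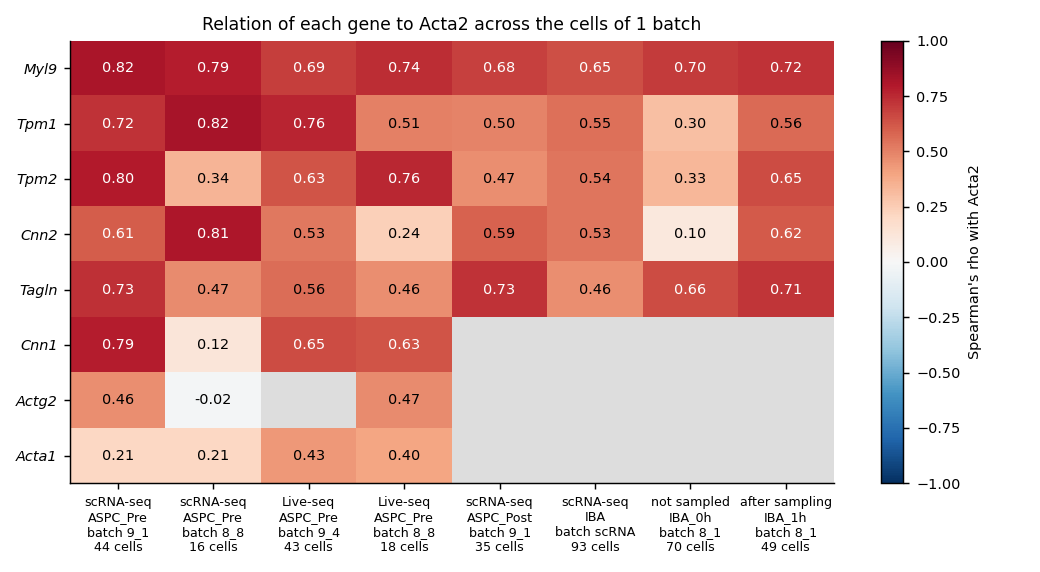
Spearman correlation of 8 members with Acta2 across the cells of 1 batch, as a colour scale from -1 to 1 with the value in each field, for 8 sets of cells; grey fields are members counted in under 50% of those cells. The Myl9 row lies between 0.645 and 0.820 in all 8 sets drawn and the Acta1 row between 0.208 and 0.434 in the 4 ASPC_Pre sets. Not drawn are scRNA-seq IBA of batch 9_1 and Live-seq ASPC_Post, where Myl9 was counted in under 50% of cells.

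Over the 27 sums of all states, which share batches and lines, the genes outside the members with the profile most like that of Acta2 were Ddah1 (Pearson r of log2(CPM + 1) = 0.987), Slco2a1 (0.976), Thbs1 (0.975), Fermt2 (0.974) and Tgfb1i1 (0.974). Of the members, Myl9 (0.984), Cnn2 (0.969), Tpm2 (0.936), Tagln (0.900) and Cnn1 (0.881) were closest and Acta1 (0.607) and Myh11 (0.501) farthest. For Tagln the most similar genes were Cavin2 (0.960), Btg3 (0.955), Fst (0.954), Tmem200a (0.950) and Emx2 (0.946).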

How the data were processed

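The authors deposited raw read counts per gene for each cell. Per the labels and the study's methods, read 1 was aligned to GRCm38 with STAR 2.6.1c, and uniquely mapped reads were counted with HTSeq in union mode without strand, on Ensembl genes with EGFP and mCherry added; libraries carried no molecular identifiers, and 918 features had no count in any cell.

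As in the study, the 20 top genes of the negative controls and 92 genes of ribosomal proteins were set aside first; no member is among them. Counts were summed per batch, state and technique over at least 3 cells, which gave 15 Live-seq and 12 scRNA-seq sums. Sums were tested with edgeR 4.0.16 (quasi-likelihood test, TMM, Benjamini-Hochberg adjustment, two-sided) in R 4.3.3 with batch as a block, on 13562, 13462 and 13561 genes in scRNA-seq, Live-seq and the joint model, with calls at an adjusted p below 0.05 and a log2 fold change beyond 1. A gene entered a test with a count of at least 2 in at least 15% of the scRNA-seq cells of a state and enough counts for edgeR's filterByExpr, a filter that Myh11 missed. Comparisons within a single batch used exact intervals on pooled counts, with 10 CPM and a 2-fold limit. Batches pair the samples because the labels give the same batch for several states; deviations from the state means correlated between sums of a batch at 0.088 to 0.521 in scRNA-seq (15 pairs) and -0.017 to 0.237 in Live-seq (16 pairs). Total counts per cell ranged from 38451 to 2671609. No 2 of the 1012 libraries were identical.

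The fits were tested on simulated sums with known changes: large changes were recovered in scRNA-seq ASPC_Pre against IBA, but almost none in the Live-seq, joint induction and technique comparisons, where a lack of calls therefore does not show a lack of change. DESeq2 1.42.0, edgeR's newer fit, no filter, counts thinned to 50000 per cell, no block and leaving out each batch were tried as alternatives. The members, the gene lists and the tests were chosen with earlier results of these data known; fits within 1 technique, values without the cell with most counts and a level limit in both groups were added after seeing the data. All 10 members are named, with up to 3 called genes of each list by size of change and the 5 genes outside the members most like Acta2 or Tagln; any other gene of the lists was named after its values were seen. Gene positions and exon lengths are from GENCODE vM21.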

Additional observations from a re-analysis of the deposited data

Results flagged for a closer look

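Dixon's criterion was applied to 5 sets of 4 or 5 batch sums of a member, all in RAW cells, and 3 values stood apart from the others of their set. Chance meets the criterion in about 1 in 20 sets, but only sets whose highest sum reached 10 CPM were tested, a choice that favours high values, so that 3 of 5 cannot be read against that rate. Acta1 reached 18.2 CPM in the Live-seq RAW_LPS sum of batch 8_8 (highest of 5) and 13.3 CPM in the RAW_Mock sum of the same batch (highest of 4). Tpm2 reached 62.04 CPM in the Live-seq RAW_Mock sum of batch 6 (highest of 4), with all counts in 1 cell.

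Actg2 had log2 ratios of opposite sign after sampling of IBA cells, 2.56 at 1 h and -2.74 at 4 h against cells not sampled. It was at 4.63, 27.4 and 0.69 CPM in cells not sampled, at 1 h and at 4 h. Only the 1 h level reached 10 CPM, which let the gene pass the level limit, and 8.57, 22.4 and 6.98% of cells held counts. The difference between the 2 time points was not tested.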

How the results depend on the processing

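No called member changed direction under any alternative: of 350 values for 33 calls, 0 reversed and 45 were no longer called. Most of these calls were against RAW_Mock, where most members had few or no counts. A reversal was hardly possible for them, so that the lack of reversals is no measure of their stability. With DESeq2 the members called were 3 for Live-seq ASPC_Pre against IBA (0 with edgeR's quasi-likelihood test), 2 for ASPC_Post against ASPC_Pre in both techniques (0) and 1 for scRNA-seq RAW_LPS against RAW_Mock (0). The newer edgeR fit called 1 and 2 for the first 2 of these. With no filter 1 member, Actg2, was called for Live-seq ASPC_Pre against IBA and for Live-seq against scRNA-seq in IBA. Thinned counts gave 3 calls for Live-seq ASPC_Pre against IBA and median correlations of 0.517 (scRNA-seq ASPC_Pre, batch 8_8) and 0.544 (Live-seq ASPC_Post). Without the replicate block 1 member was called for Live-seq ASPC_Pre against IBA, and in scRNA-seq Acta1, Acta2 and Tpm2 were not called (adjusted p = 0.0514, 0.0643 and 0.0629 by edgeR). Without the cell with most counts, 0 members were at least 2-fold higher at 4 h, against 1, and with 10 CPM asked of both groups 2 were at 1 h, against 4, and 0 at 4 h. Of 100 alternative values of the log2 ratios within a batch, 59 lay outside the counting interval of the ratio, which is narrow; Cnn2 at 1 h went from 0.03 to -0.07 by the mean over cells and -0.15 on thinned counts, and at 4 h Myl9 went from -0.11 to -0.83 and -0.77 and Tagln, on thinned counts, from -0.29 to -0.90. Leaving out 1 batch at a time, the calls ran from 1 to 6 for scRNA-seq ASPC_Pre against IBA, 0 to 8 for Live-seq ASPC_Pre against RAW_Mock, 0 to 6 for Live-seq IBA against RAW_Mock, 6 to 8 for scRNA-seq IBA against RAW_Mock and 0 to 1 for induction. The causes of these differences were not tested. Each state had at most 5 sums per technique, and ASPC_Post had 1, which limits what could be called.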
